A study of Mus musculus with 33 samples.

Results

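The H3K4me3 domains of embryoid bodies (EBs) at week 2 of differentiation were compared between WT cells and cells without Uhrf1. The members were all domains in the 2 deposited lists, 39898 in WT and 32702 in Uhrf1 KO, or 72600 of the 318036 regions listed over the 33 samples of the series. WT EBs were grown from E14 mouse embryonic stem cells (mESC), and KO EBs from a Uhrf1 KO E14 mESC line. Both lines were obtained from another laboratory, the KO was a single line, and the labels do not say whether it was made from this WT line. mESC were kept in serum with leukemia inhibitory factor on gelatin or on mouse embryonic fibroblasts, and EBs were made by hanging drop and then cultured in suspension. H3K4me3 was immunoprecipitated from both genotypes with the same polyclonal antibody. Each genotype and stage had 1 library, so no difference below has a replicate check, and no p-value is given.

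H3K4me3 is trimethylation of lysine 4 on histone H3, a mark of active and poised promoters that is densest over CpG islands. It is laid down by COMPASS complexes, whose catalytic subunits are Setd1a, Setd1b and the Mll proteins. Many developmental regulators of mESC carry it together with the polycomb mark H3K27me3, a state called bivalent. Uhrf1 binds hemimethylated DNA and brings the maintenance methyltransferase Dnmt1 to newly copied DNA, so that cells without it lose most of their DNA methylation. EBs are aggregates in which mESC leave pluripotency and form derivatives of all germ layers.

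A domain was called WT-only when no base of it overlapped a KO domain, KO-only when no base overlapped a WT domain, and shared otherwise. A coding gene was called lost when a WT and no KO domain reached within 2 kb of its start, gained in the opposite case, kept when both lists had one, and unmarked when neither had. Column 5 of the lists was read as a mean signal per bin of a domain. Some domains of 1 bin hold values that are not whole numbers, such as 19.802 at Olfr1058. Column 5 is therefore not a raw read count, and how it was scaled is not known. Bins were 400 bp wide in WT and 350 bp in KO, so column 5 was used as a percentile within its own list.

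The starts of the genes with the strongest lost and gained domains are shown as 300 bases each, 270 before the annotated start and 30 from it on, read from NCBIM37 (mm9), with every CpG in capitals. The window round the start of all coding genes held a median of 11 CpG. Hand2, a regulator of heart and limb development, kept a broad domain and stands for the CpG-rich starts, with 16 CpG and an observed to expected CpG ratio of 0.94 (chr8:59799510-59799809, plus strand):
Hand2: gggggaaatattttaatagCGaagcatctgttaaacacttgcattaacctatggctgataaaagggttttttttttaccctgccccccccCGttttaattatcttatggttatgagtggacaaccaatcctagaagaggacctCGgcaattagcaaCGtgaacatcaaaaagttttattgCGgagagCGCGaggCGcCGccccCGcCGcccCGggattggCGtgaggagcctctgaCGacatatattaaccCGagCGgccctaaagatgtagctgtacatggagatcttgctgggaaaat
Among the lost genes with the highest WT column 5 were Olfr212 (chr6:116456264-116456563, plus strand) and Mpv17 (chr5:31460497-31460796, minus strand). Their windows held 16 and 2 CpG:
Olfr212: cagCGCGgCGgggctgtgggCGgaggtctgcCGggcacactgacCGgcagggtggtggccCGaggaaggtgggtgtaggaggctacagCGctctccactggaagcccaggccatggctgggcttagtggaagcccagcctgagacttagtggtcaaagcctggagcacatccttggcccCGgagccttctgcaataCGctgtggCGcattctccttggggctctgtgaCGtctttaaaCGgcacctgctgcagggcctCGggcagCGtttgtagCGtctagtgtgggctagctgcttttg
Mpv17: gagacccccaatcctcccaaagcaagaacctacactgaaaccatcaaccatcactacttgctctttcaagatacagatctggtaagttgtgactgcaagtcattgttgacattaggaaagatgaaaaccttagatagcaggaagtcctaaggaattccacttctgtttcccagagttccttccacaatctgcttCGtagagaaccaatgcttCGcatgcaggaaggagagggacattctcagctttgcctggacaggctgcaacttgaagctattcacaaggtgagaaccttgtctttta
The gained genes with the highest KO column 5 were Lgals8 (chr13:12557182-12557481, minus strand), Btnl7 (chr17:34684567-34684866, minus strand) and Rhbg (chr3:88091103-88091402, minus strand). Their windows held 1, 4 and 3 CpG:
Lgals8: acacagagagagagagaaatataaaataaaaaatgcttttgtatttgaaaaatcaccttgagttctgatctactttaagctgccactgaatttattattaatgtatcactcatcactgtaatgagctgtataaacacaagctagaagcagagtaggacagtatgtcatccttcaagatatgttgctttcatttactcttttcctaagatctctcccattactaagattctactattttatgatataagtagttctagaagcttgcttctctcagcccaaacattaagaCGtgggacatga
Btnl7: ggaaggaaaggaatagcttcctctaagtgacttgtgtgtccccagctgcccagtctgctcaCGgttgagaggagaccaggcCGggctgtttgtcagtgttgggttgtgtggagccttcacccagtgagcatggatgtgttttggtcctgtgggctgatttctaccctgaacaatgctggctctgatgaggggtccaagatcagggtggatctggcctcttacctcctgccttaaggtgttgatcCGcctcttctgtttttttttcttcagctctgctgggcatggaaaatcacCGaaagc
Rhbg: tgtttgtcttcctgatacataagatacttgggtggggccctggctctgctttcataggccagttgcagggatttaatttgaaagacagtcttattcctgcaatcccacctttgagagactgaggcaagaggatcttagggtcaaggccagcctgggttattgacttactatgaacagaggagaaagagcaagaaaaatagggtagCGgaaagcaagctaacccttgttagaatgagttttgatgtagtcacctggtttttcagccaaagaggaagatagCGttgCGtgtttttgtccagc
A further 4 starts were chosen after their values were seen, because their WT-KO difference was listed at all 3 EB weeks or because they belong to the liver genes described below. Hand2 above was also chosen after its values were seen. Tubb4, a neuronal beta-tubulin (chr17:57227176-57227475, minus strand), and Fgb, the beta chain of fibrinogen (chr3:82853696-82853995, minus strand), were lost and held 7 and 5 CpG:
Tubb4: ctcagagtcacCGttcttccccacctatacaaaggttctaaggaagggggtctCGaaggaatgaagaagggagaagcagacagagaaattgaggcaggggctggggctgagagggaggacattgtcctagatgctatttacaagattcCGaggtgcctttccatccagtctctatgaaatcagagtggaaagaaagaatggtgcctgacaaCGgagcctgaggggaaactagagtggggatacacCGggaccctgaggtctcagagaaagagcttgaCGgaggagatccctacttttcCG
Fgb: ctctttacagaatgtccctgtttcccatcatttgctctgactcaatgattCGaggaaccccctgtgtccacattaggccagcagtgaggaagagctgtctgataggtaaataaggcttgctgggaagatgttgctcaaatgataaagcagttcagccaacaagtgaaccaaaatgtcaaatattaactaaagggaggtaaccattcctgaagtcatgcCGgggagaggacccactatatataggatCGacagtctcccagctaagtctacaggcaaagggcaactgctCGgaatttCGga
Xlr3a (chrX:70342405-70342704, minus strand) and Xlr3b (chrX:70437276-70437575, plus strand) were gained and held 4 and 7 CpG. Their windows aligned over 226 columns, 196 of them identical (86.7%), and each read was kept at 1 mapped position:
Xlr3a: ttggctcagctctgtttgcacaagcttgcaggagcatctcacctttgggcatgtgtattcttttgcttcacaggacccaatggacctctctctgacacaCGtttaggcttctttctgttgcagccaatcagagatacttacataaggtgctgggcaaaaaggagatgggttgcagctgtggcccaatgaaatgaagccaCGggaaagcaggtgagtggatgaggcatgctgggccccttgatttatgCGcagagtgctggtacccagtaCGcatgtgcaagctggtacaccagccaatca
Xlr3b: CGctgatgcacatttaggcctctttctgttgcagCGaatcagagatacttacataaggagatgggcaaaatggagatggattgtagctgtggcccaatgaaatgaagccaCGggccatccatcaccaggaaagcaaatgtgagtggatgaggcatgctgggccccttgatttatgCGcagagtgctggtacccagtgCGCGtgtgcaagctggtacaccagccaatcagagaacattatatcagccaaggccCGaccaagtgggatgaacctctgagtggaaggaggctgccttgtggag

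WT EBs had more H3K4me3 domains than KO EBs at week 2, and the domains listed in only 1 genotype were short and of low rank. In WT, 24082 domains (60.4%, 95% Wilson interval 59.9 to 60.8%) overlapped a KO domain and 15816 (39.6%) were WT-only. In KO, 25260 domains (77.2%, 76.8 to 77.7%) overlapped a WT domain and 7442 (22.8%) were KO-only. These intervals cover counting error over domains only, and neighbouring domains are not independent. WT-only domains made up 16.0% of the WT-covered bases, and KO-only domains 8.40% of the KO-covered bases. The WT list covered 205.8 Mb and the KO list 154.5 Mb. The WT library was also the deeper one by the read totals the study lists, and the part of depth in the longer WT list was not tested.

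WT-only domains had a median length of 1600 bp (quartiles 800 and 2400 bp), against 5200 bp (2400 and 9200 bp) for the shared domains of the WT list. KO-only domains had a median of 1400 bp (700 and 2100 bp), against 3850 bp (1750 and 7350 bp) for the shared domains of the KO list. A single bin made up 9.77% of WT-only and 10.6% of KO-only domains, but 1.78% and 2.01% of the shared domains of the same lists. The median column 5 percentile was 31.9 for WT-only, 65.9 for shared WT, 37.1 for KO-only and 55.6 for shared KO domains. Of the WT domains in the lowest decile of column 5, 34.4% were shared, and of those in the highest decile 98.0%. In KO the share was 67.8% in the lowest decile and 95.3% in the highest. Only 80 WT-only domains and 153 KO-only domains lay in the top 10% of column 5 of their list.

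**Figure D1:**
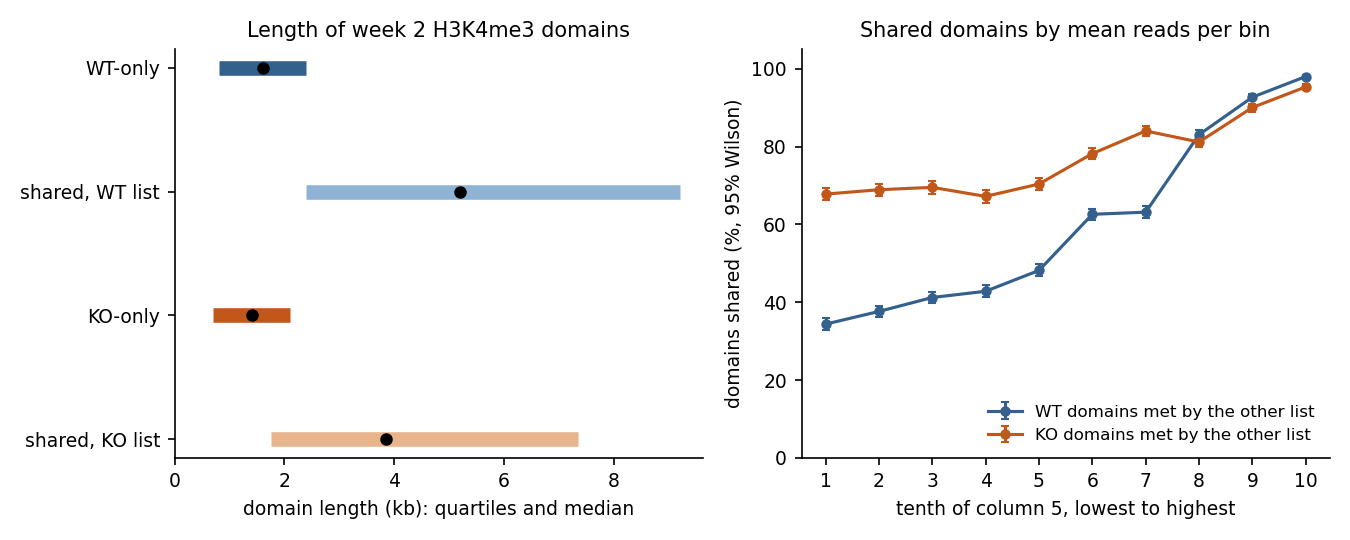
Left, length in kb of WT-only, shared and KO-only week 2 H3K4me3 domains, with bars from the lower to the upper quartile and a dot at the median. Right, the share of domains overlapping the other list per decile of column 5 (titled mean reads per bin), with 95% Wilson intervals over domains. Column 5 is not a raw read count. The WT share goes from 34.4% to 98.0% and the KO share from 67.8% to 95.3%.

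Domains present in both genotypes were mostly shorter in KO. In 21058 cases 1 WT domain met exactly 1 KO domain that met no other, and 14137 of these pairs (67.1%) were shorter in KO, 6769 longer. The median length of the paired domains was 4800 bp in WT and 3850 bp in KO, a median log2 ratio of -0.22. The WT bin is wider than the KO bin, which bears on these lengths and whose part was not tested. The percentiles of column 5 in paired domains had a Spearman correlation of 0.73, as a description over domains that share their 2 libraries. The median KO minus WT percentile was -5.85, with quartiles of -19.2 and 4.55. A WT domain was met by 2 or more KO domains in 1666 cases, and the reverse occurred in 702.

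The longest unshared domains lay outside promoters. The longest WT-only domains were chr13:66563601-66598000 (34400 bp, intergenic), chr6:146855201-146883600 (28400 bp, in an intron of Ppfibp1, which codes for a liprin) and chr12:22806001-22834000 (28000 bp, intergenic). The longest KO-only domains were chr1:87358601-87407950 (49350 bp), chrX:30450351-30496900 (46550 bp) and chr13:65720201-65761150 (40950 bp), all intergenic. Column 6, the domain score, had a median of 0.898 per bin over WT-only and 0.892 over KO-only domains. The Ppfibp1 domain scored 0.730 per bin, whereas the scores of the other 5 lay between 0.041 and 0.10, far under the median of their class.

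Unshared domains of both genotypes lay away from gene starts. A coding gene start lay within 2 kb of 4.18% of WT-only domains (661 of 15816) and 48.1% of shared WT domains, a difference of -43.9 points (95% Newcombe interval -44.6 to -43.2). The shares in KO were 5.70% of KO-only (424 of 7442) and 46.5% of shared domains, a difference of -40.8 points (-41.6 to -39.9). WT-only domains were intronic in 45.7% and intergenic in 48% of cases, against 23.1% and 27.1% of the shared WT domains. KO-only domains were exonic in 4.56% of cases against 2.19% of WT-only domains, 2.37 points more (1.86 to 2.91), and intronic in 38.1%, 7.61 points fewer (-8.96 to -6.26). The nearest coding gene start lay a median of 50791 bp from WT-only domains, 32678 bp from KO-only domains, and 8465 and 8798 bp from shared domains of the WT and KO lists.

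**Figure D2:**
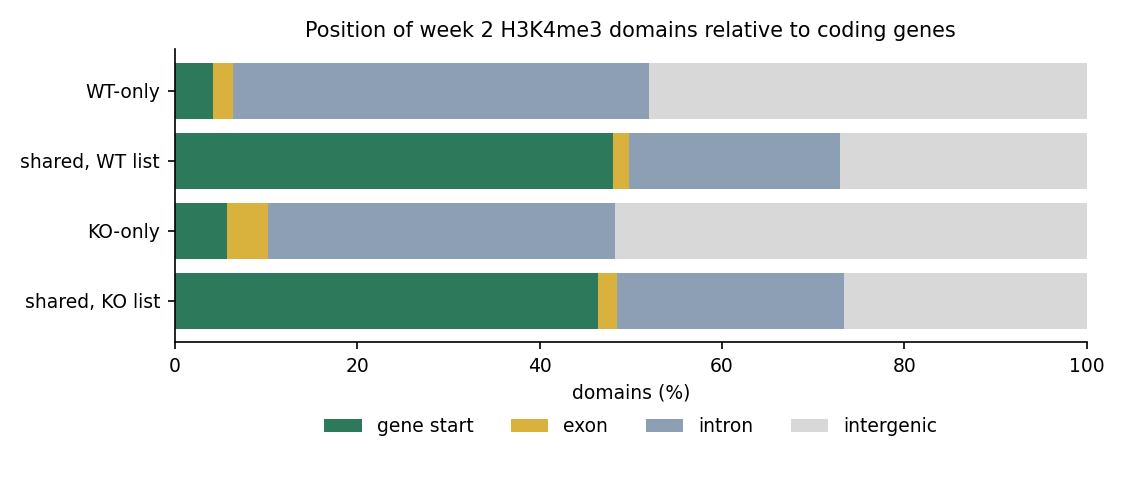
Share in percent of WT-only, shared and KO-only week 2 H3K4me3 domains that reach within 2 kb of a coding gene start or have their midpoint in an exon, an intron or between genes. Gene starts take 4.18% of WT-only and 5.70% of KO-only domains and over 46% of the shared domains in both lists.

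WT domains at gene starts were retained in KO far more often than the others. Of 12246 WT domains at a coding gene start, 94.6% overlapped a KO domain, and of the 27652 others 45.2%, a difference of 49.4 points (95% Newcombe interval 48.7 to 50.1). Within 5 equal groups of domain length the difference was 22.1 points (21.2 to 23.1), and within 5 groups of column 5 it was 29.4. WT domains that overlapped WT week 2 H3K27me3 were retained in 51.9% of cases and those without it in 63.2%, a difference of -11.3 points (-12.4 to -10.1), or -4.33 (-5.32 to -3.34) within length groups. WT domains that overlapped H3K9me3, a heterochromatin mark measured in WT mESC, were retained in 53.7% against 62.9%, a difference of -9.17 points (-10.3 to -8.09). Only 611 WT domains lay in windows enriched for Uhrf1 in WT mESC. They were retained in 54.7% of cases against 60.4% elsewhere, a difference of -5.78 points (-9.78 to -1.85), or -9.06 (-12.5 to -5.66) within length groups. Uhrf1 and H3K9me3 were taken from mESC lists and not from EBs. WT-only domains overlapped H3K27me3 of week 2 in 30.5% of cases in WT and 18.1% in KO. KO-only domains did so in 26.6% and 25% of cases, and shared WT domains in 21.6% and 20.5%.

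WT-only domains had the lowest CpG content, and KO-only domains were richer in CpG. The median observed to expected CpG ratio of whole domains was 0.21 for WT-only (quartiles 0.16 and 0.28), 0.28 for KO-only (0.20 and 0.37), 0.31 for shared WT and 0.33 for shared KO domains. Away from gene starts the medians were 0.212 for WT-only, 0.276 for KO-only, 0.269 for shared WT and 0.283 for shared KO domains, so KO-only domains did not lie under the shared ones of the WT list. In the central 500 bp, a ratio of at least 0.6, which is common for CpG islands, was reached by 1.40% of WT-only (95% Wilson interval 1.23 to 1.60%), 5.27% of KO-only (4.78 to 5.80%) and 12.2% of shared WT domains. The median GC content of whole domains was 43.2% in WT-only and 46.1% in KO-only domains.

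KO-only domains of week 2 were found again in KO EBs at week 3 more often than in WT EBs of that age. The other stages had not been used to define the classes. The KO week 3 list overlapped 43.1% of the 7442 KO-only domains and the WT week 3 list 23.8%, a difference of 19.3 points (95% interval of the paired difference 18.1 to 20.4), with 1824 domains in the KO list alone and 391 in the WT list alone. At week 1 the shares were 9.10% in KO and 5.37% in WT, 3.72 points apart (2.95 to 4.5). In mESC the order was the opposite, with 21.0% in KO and 27.3% in WT, a difference of -6.32 points (-7.25 to -5.38). WT-only domains recurred less: 14.4% overlapped the WT week 3 list and 11.2% the KO week 3 list, a difference of -3.19 points (-3.75 to -2.62). Taking the other 6 H3K4me3 lists as a whole, 26.7% of WT-only, 58.6% of KO-only and 91.8% of shared WT domains overlapped at least 1 of them. The mESC lists were called with bins of 1300 bp and hold longer domains, so shares in them cannot be set beside those of the EB lists.

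**Figure D3:**
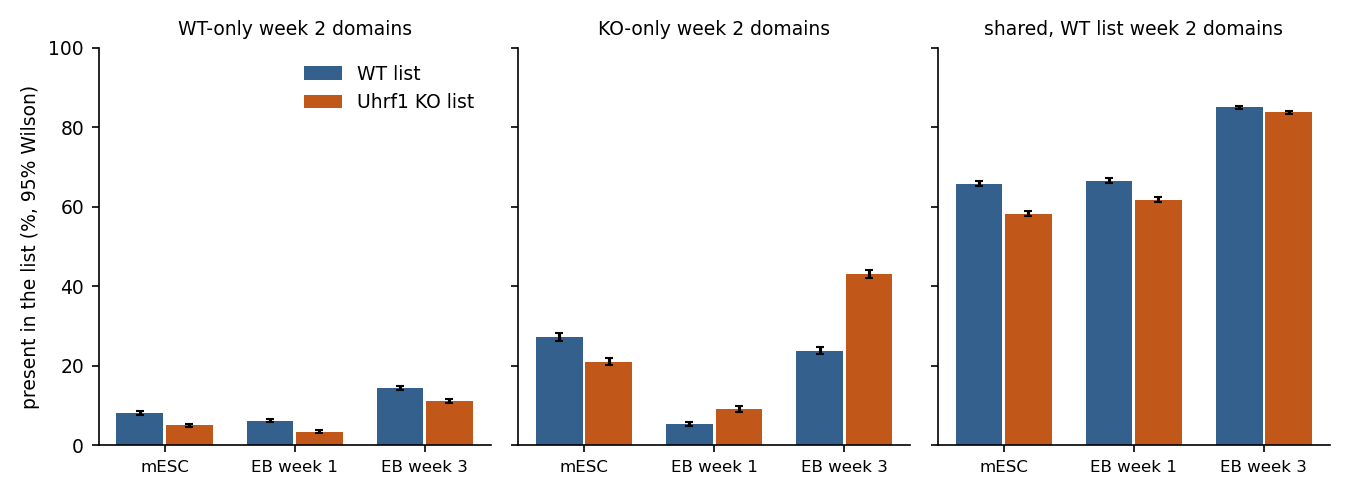
Share in percent of WT-only, KO-only and shared (WT list) week 2 H3K4me3 domains that overlap the H3K4me3 lists of mESC and of EBs at weeks 1 and 3, in WT and Uhrf1 KO, with 95% Wilson intervals over domains. KO-only domains are in 43.1% of cases in the KO and in 23.8% in the WT list of week 3; for WT-only domains the KO minus WT difference at week 3 is -3.19 points.

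Domains unique to 1 genotype were unevenly spread over chromosomes. Chromosome 8 held 1729 WT-only domains, 10.9% of all, and 44.3% of its WT domains were retained, against 55.3 to 69.9% on the other 18 chromosomes compared (1 to 7, 9, 10, 12 to 19 and X). The KO to WT ratio of domain numbers on chromosome 8 was 0.62 at week 2 against 0.75 to 0.88 on those 18, and it was 0.64 in mESC, 0.74 at week 1 and 0.82 at week 3. Chromosome 11 held 1034 KO-only domains, 13.9% of all, and 64.3% of its KO domains were shared, against 75.5 to 85.0%. Its KO to WT ratio was 1.17 at week 2, 1.23 at week 1 and 1.20 at week 3, while in mESC it was 0.77, within the range of 0.71 to 0.83 of the 18 others. The cause of these chromosome-wide differences was not tested. Without chromosomes 8 and 11, 60.4% of WT and 78.1% of KO domains were shared, and the week 3 difference for KO-only domains was 19.5 points.

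**Figure D4:**
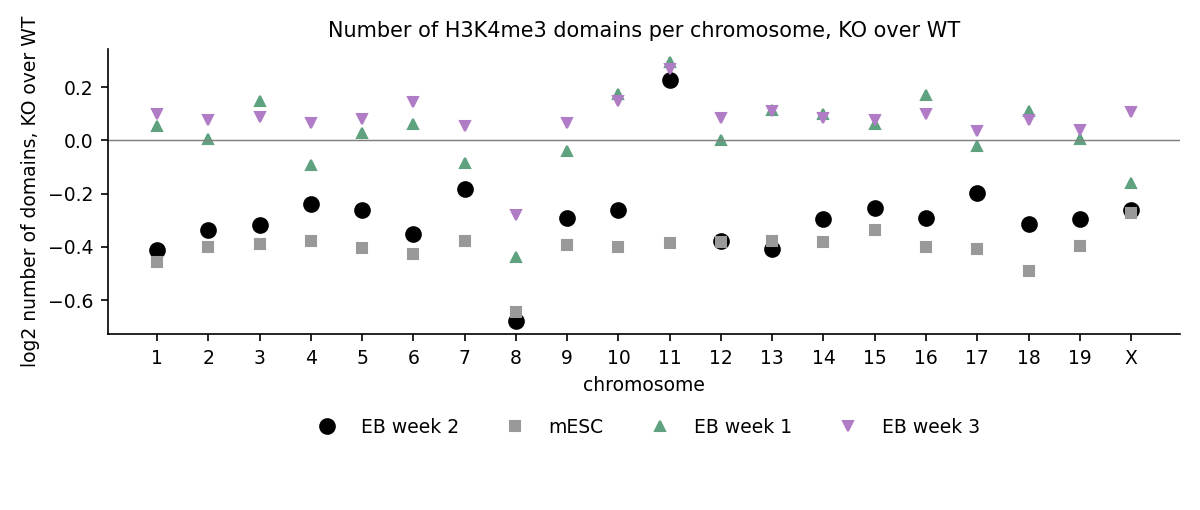
Number of H3K4me3 domains in KO over WT, as log2, for each chromosome (horizontal axis) and stage (symbols). Chromosome 8 is lowest at every stage, and chromosome 11 is above 0 at the 3 EB weeks, where its ratios are 1.23, 1.17 and 1.20.

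Most coding genes had the same H3K4me3 status at their start in both genotypes. Of 22367 coding genes, 14699 (65.7%) had a WT and 14422 (64.5%) a KO domain within 2 kb of the start. There were 13915 kept, 784 lost (3.51% of all coding genes), 507 gained (2.27%) and 7161 unmarked genes. Lost genes were 5.33% of those with a WT domain, and gained genes 6.61% of those without. The order of both counts depended on list length: with the WT list cut to 32702 domains by column 5, 529 genes were lost and 974 gained. Uhrf1 itself was kept, with domains of 8800 bp in WT and 5250 bp in KO, so the mark at its start does not tell the genotypes apart.

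Lost and gained promoters had short domains of low rank and few CpG. The median length of the domain at the start was 2400 bp for lost and 2450 bp for gained genes, against 8800 bp in WT and 7000 bp in KO for kept genes. The median percentile of column 5 was 31.9 for lost genes and 29.0 for gained genes, against 81.6 and 74.7 for kept genes. In the 1000 bp round the start, an observed to expected CpG ratio of at least 0.6 was found for 18.6% of lost (95% Wilson interval 16.1 to 21.5%) and 15.6% of gained genes (12.7 to 19%), for 69.6% of kept and 4.20% of unmarked genes. A domain of H3K27me3 lay within 5 kb of the start of 39.7% of lost genes in WT and 40.4% in KO. The same shares were 33.5% and 39.3% for gained genes and 19.8% and 20.1% for kept genes.

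Not every lost or gained call was a missing domain. For 630 of the 784 lost genes (80.4%) every WT domain near the start was WT-only, and for the other 154 a shared domain reached the start in WT but ended short of it in KO. Among gained genes, 389 of 507 (76.7%) had only KO-only domains near the start. A start lost at the edge of a shared domain lay a median of 3043 bp from the nearest KO domain, and the other lost starts a median of 26034 bp. In the other stages, 52.3% of lost genes had a WT and 42.1% a KO domain at week 3, a difference of -10.2 points (95% interval of the paired difference -13.7 to -6.67). Of the gained genes, 64.5% had a KO and 49.7% a WT domain at week 3, 14.8 points more in KO (10.1 to 19.5). At the other stages gained genes had a domain less often in KO. In mESC 39.1% had a KO and 53.3% a WT domain, a difference of -14.2 points (-18.4 to -10.04), and at week 1 17.2% and 22.1%, a difference of -4.93 points (-9.20 to -0.67).

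The 10 lost genes of highest WT column 5 were mostly such edge cases. They were Olfr212, Zfp869, Mpv17, Pcp2, Akap3, Rpl3l, Cd27, Synpo2l, Zfp964 and Fam129c. Zfp869, Pcp2, Zfp964 and Fam129c are on chromosome 8, where KO had fewer domains. That chromosome carried 58 of the 784 lost genes (7.40%) and 5.61% of kept genes. WT column 5 values of the 10 genes lay between 20.1 and 28.2, and 9 of the genes touched a shared domain. All 10 had a KO domain at week 3. The exception was Olfr212, an olfactory receptor gene, whose 800 bp WT-only domain stood at the 98.4th percentile. It was also listed in WT mESC and WT week 1 and in both week 3 lists. Among lost genes whose domains were all WT-only, Olfr212 was followed by Olfr1058 (19.8), Defb10 (19), Cml2 (17.7) and Tubb4 (17.0), all with a single bin. Abcc2, which exports bilirubin conjugates from hepatocytes, had a 4400 bp WT-only domain with a column 5 value of 16.0. The last 5 were picked after their values were seen.

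The 10 gained genes of highest KO column 5 were Lgals8, Btnl7, Rhbg, Slc25a2, Zfp738, Myo1g, Xlr3a, S1pr4, Casc3 and Usp9y. Their KO column 5 values lay between 16.0 and 25.7. Lgals8 codes for a galectin, Rhbg for an ammonium transporter and S1pr4 for a sphingosine 1-phosphate receptor. Of the 10, Xlr3a and the Y-linked Usp9y had only KO-only domains, of 2100 bp each. Among the 10 highest gained starts without a shared domain, the longest KO-only domains were 11200 bp at Tgtp2, an interferon-induced GTPase gene with a close copy beside it, and 5600 bp at Eps8l1, an adaptor of actin signalling. Both were picked after their values were seen. Chromosome 11 carried 85 of the 507 gained genes (16.8%) and 8.42% of kept genes, Myo1g and Casc3 among the gained.

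Some starts differed in the same direction at weeks 1, 2 and 3. This was the case for 42 lost genes (0.188% of coding genes) and 19 gained genes (0.0849%). The lost genes with the highest WT value were Igf2 (17.9), Snd1 (17.7), Tubb4 (17.0), Prr19 (15.4) and Aspg (13.0). Igf2, the imprinted fetal growth factor gene, had a 12800 bp WT domain at its 5-prime-most start that met a KO domain ending short of the start, and H3K4me3 covered 10.1 kb in WT and 4.88 kb in KO within 10 kb of it. Pdx1, Pax2, Ascl2 and Prdm16, which code for regulators of pancreas, kidney, trophoblast and brown fat, also belonged to the 42, with WT percentiles between 2.56 and 32.5. Pax2, Ascl2 and Prdm16 met neither naming rule and were picked from the 42 after the values were seen, so they do not stand for the rest. The gained genes with the highest KO value were Xlr3a (17.3), Casc3 (16.3), Usp9y (16.0), Xlr3b (15.6) and Xlr (13.7).

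The Xlr family, X-linked genes of lymphoid and germ cells, was listed in KO EBs and in no WT EB list. Xlr, Xlr3a, Xlr3b and Xlr3c had KO-only domains of 1400 to 2100 bp at week 2, at percentiles between 75.1 and 94.2, and no WT domain at weeks 1, 2 or 3. In mESC, Xlr3b had a KO domain and none of the 4 had a WT domain. The other 6 members (Xlr4a to Xlr4c and Xlr5a to Xlr5c) had no domain in either genotype in EBs, and Xlr4b had a KO domain in mESC. The Xlr3 genes are related copies that may share reads, so how many of them carried the mark is uncertain. Nxf3 and Tex13, other X-linked genes of the testis, had KO-only domains of 2100 and 1750 bp and no WT EB domain. The family was picked after its values were seen. X-linked genes made up 3.94% of gained and 6.76% of lost genes, against 3.02% of kept and 6.13% of unmarked genes.

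Gene lists were then read in 2 ways, by lost and gained starts and by the length covered with H3K4me3 within 10 kb of the start. The second measure was chosen after the data were seen. Of 16795 coding genes with any covered base in that window, 5577 (33.2%) had a longer covered length in KO and 11029 (65.7%) in WT, with a median KO minus WT difference of -0.95 kb. Starts of all germ layers carried the mark in WT EBs, with WT domains at 25 of 29 endoderm, 25 of 35 heart, 26 of 35 neural and 18 of 27 blood and endothelium genes. A bulk library cannot tell a smaller share of cells with the mark from a lower level per cell, and the part of the cell types present was not tested.

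The endoderm, liver and yolk sac list had the largest share of lost starts among the lists of the germ layers. Of its 29 genes, 18 were kept, 7 lost and 1 gained, so that 7 of 25 starts with a WT domain were lost (28.0%, against 5.33% of all coding genes). The lost genes were Apob, the apolipoprotein of low density lipoprotein, the fibrinogen chains Fga and Fgb, the transferrin gene Trf, and the regulators Gsc, of mesendoderm, Pdx1, of pancreas, and Cdx2, of hindgut and trophoblast. Their WT percentiles lay between 1.32 and 82.2. Alb, the albumin gene, was gained, with a 700 bp domain. Covered length was shorter in KO for 24 of the 28 genes with any mark, with a median difference of -2.95 kb. It was 14 kb in WT and 2.1 kb in KO at Cdx2, 9.2 and 2.1 kb at the transthyretin gene Ttr, and 8 and 2.1 kb at Afp, the gene of alpha-fetoprotein. The pan-endodermal regulators Sox17 (9.20 and 9.10 kb) and Gata6 (16.5 kb in both) differed little. With equal list lengths 5 genes of the list were lost and 2 gained, and 4 were lost when no KO domain was allowed within 10 kb.

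Pluripotency genes had longer covered lengths in KO EBs. Of 22 genes, 18 were kept, none was lost and Dppa4 was gained. Covered length was longer in KO for 12 of the 20 genes with any mark and shorter for 7, with a median difference of 2.70 kb against -0.95 kb for all coding genes. It was 3.98 kb in WT and 15.3 kb in KO at Dppa5a, 14 kb and the whole window of 20 kb at Zfp42 (Rex1), 8.18 and 12.5 kb at Pou5f1, which codes for Oct4, and 12.8 and 15.8 kb at Nanog. Sox2, which is shared with neural progenitors, had the whole window in WT and 19.2 kb in KO, and Klf4 12 and 8.4 kb. The domain at the Pou5f1 start was at percentile 21.1 in WT and 51.3 in KO. Over the 18 kept genes column 5 did not follow covered length: 9 had a higher and 9 a lower percentile in KO, with a median difference of -4.41 against -5.40 over all kept genes.

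Heart genes went in both directions. Of 35 genes, 21 were kept, 4 lost and 3 gained. The lost were 16% of 25 starts with a WT domain (5.33% of all coding genes) and the gained 30% of 10 without (6.61%). With equal list lengths 4 were lost and 6 gained. The lost starts belonged to the sarcomere genes Tnnt2, Myh7, Mybpc3 and Myl3, with WT-only domains of 800 to 2800 bp, and the gained ones to the atrial light chain gene Myl7, the calsequestrin gene Casq2 and the natriuretic peptide gene Nppb. Covered length was shorter in KO for 18 of 31 genes, where 65.7% of all coding genes were shorter, among them Nkx2-5 (15.3 kb in WT and 4.56 kb in KO) and Pln, the phospholamban gene (11.2 and 2.45 kb), and longer for 11, among them Tnni3 (6.40 and 11.6 kb) and Myl4 (12 and 16.8 kb). None of these 4 lost starts had a domain in either genotype at week 3. At week 1 all 4 had a KO domain, and all but Myh7 had a WT domain. Myl7 had a WT domain at weeks 1 and 3, and it is on chromosome 11, where KO had more domains at week 2. Nkx2-5, Hand2, Tbx5, Ednra, Msx2, Otx2, Sall1, Nes, Neurod1, Tubb3, Klf2 and Wnt2b, the 12 genes taken from the study, were all kept. Their column 5 percentile was lower in KO for 11 of 12, with a median difference of -20.6 against -5.40 over all kept genes. With equal list lengths Nkx2-5 and Klf2 were gained and none of the 12 was lost.

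H3K4me3 was spread more widely over the Hox clusters in KO. Of 39 Hox genes, 31 were kept, none was lost and 6 of the 8 without a WT domain were gained (Hoxa9, Hoxb1, Hoxb9, Hoxb13, Hoxc11 and Hoxd1), against 6.61% of all coding genes without one. Covered length near the start was longer in KO for 31 of 39 and shorter for 7, with a median difference of 3.4 kb. Neighbouring Hox starts share domains and their windows overlap, so the 39 genes are not separate observations. In the HoxA cluster (chr6:52105366-52210874), WT EBs had 5 domains over 74.5% of the cluster, the longest of 30 kb, and KO EBs had 2 domains over 95.4%, the longest of 86.1 kb. HoxB was covered over 36.1% in WT and 60.8% in KO, HoxC over 38.4% and 50.7%, and HoxD over 35.5% and 49.8%. The same clusters were covered less in KO than in WT in mESC and at week 1, where HoxA had 48.6% in WT and 22.1% in KO and HoxD 51.3% and 9.04%. At week 3 HoxA was covered over 95% and 98.8%, and HoxB, HoxC and HoxD were again covered less in KO. Other windows gave 7 gained genes (1 kb), 5 gained and 1 lost (5 kb), and 2 gained when no WT domain was allowed within 10 kb; with equal list lengths 18 were gained. HoxB is on chromosome 11, where KO had more domains at week 2.

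**Figure D5:**
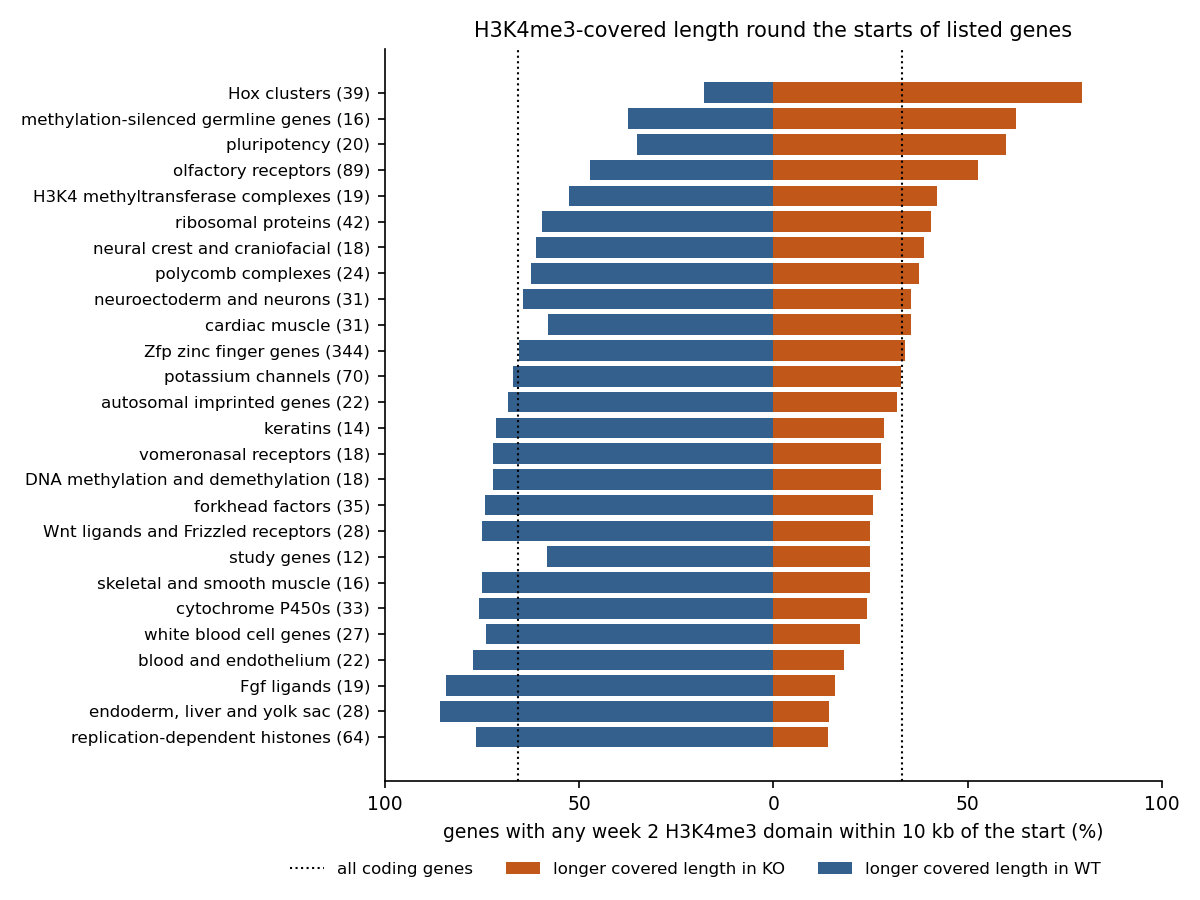
Share in percent of listed genes whose H3K4me3-covered length within 10 kb of the start was longer in KO (right, orange) or in WT (left, blue) at week 2; the number of genes with any covered base is in brackets, lists with fewer than 10 such genes are left out, and dotted lines mark all coding genes (33.2% and 65.7%). Hox clusters, germline and pluripotency genes stand at the top, endoderm and Fgf genes near the bottom. Neighbouring Hox genes share domains and are not separate observations.

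Genes that DNA methylation silences outside the germ line had few marks. Of 30 such genes, 20 were unmarked and 6 kept, Tdrd1 was lost, and Sycp3 (a synaptonemal complex protein), Hormad2 and Rnf17 were gained, with domains of 1400, 4200 and 1400 bp. Sycp3 and Hormad2 had WT domains at week 3 as well, and Sycp3 and Rnf17 had WT domains in mESC. Hormad2 is on chromosome 11, where KO had more domains at week 2. Covered length was longer in KO for 10 of 16 marked genes, against 33.2% of all coding genes. The difference was largest for Tex19.1 (2.00 kb in WT and 11.6 kb in KO). Among DNA methylation genes all 18 were kept, and Dnmt3l, the cofactor of the de novo methyltransferases, had 0.80 kb covered in WT and 9.64 kb in KO, while Dnmt1 had 10.8 and 9.80 kb.

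Of 26 autosomal imprinted genes, 16 were kept, none was gained and 5 were lost, or 5 of 21 starts with a WT domain (23.8%, against 5.33%). A window of 5 kb and equal list lengths each left 3 lost genes, and allowing no KO domain within 10 kb left 2, Snrpn and Rasgrf1. Besides Igf2 the lost genes were Snrpn, the growth inhibitor gene Cdkn1c, Slc22a18 and Rasgrf1, with WT percentiles between 13.7 and 45.5. Their covered lengths were 6.40 kb in WT and 1.40 kb in KO at Cdkn1c, 5.98 and 1.23 kb at Slc22a18, and 4 and 0 kb at Rasgrf1. Mest, by contrast, had 0.854 kb in WT and 7.75 kb in KO, and Nnat 10.4 and 16.8 kb.

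Among 35 neural genes, Dlx2 was lost and Gbx2 and Olig2 were gained. The lost were 3.85% of 26 starts with a WT domain (5.33% of all coding genes) and the gained 22.2% of those without (6.61%). With equal list lengths 1 was lost and 8 were gained. Covered length at Dlx2 was 3.6 kb in WT and 5.25 kb in KO, the opposite of its call. At blood and endothelium genes Ptprc (CD45) was lost and Hba-a1 and Sfpi1, which codes for PU.1, were gained. These were 5.56% of 18 starts with a WT domain and 22.2% of those without. With equal list lengths 1 was lost and 7 gained. Sfpi1 was gained at the edge of a shared domain and had 8.65 kb covered in WT and 3.8 kb in KO. Hba-a1 is on chromosome 11, where KO had more domains at week 2. A longer list of 40 white blood cell genes, assembled after the data were seen, had 8 lost starts among 20 with a WT domain, against 5.33% of all coding genes with one (Ptprc, Nckap1l, Csf1r, Mpeg1, Mrc1, Cd53, Flt3 and Il10ra) and 1 gained (Coro1a). Their WT percentiles lay between 3.69 and 69.1, and Flt3 had 0.8 kb covered in WT and 2.67 kb in KO. Potassium channels had 7 lost and 5 gained starts among 94, Fgf ligands 3 and 0 among 22 (Fgf16, Fgf21 and Fgf23), and forkhead factors 0 and 2 among 43, where 3.51% of all coding genes were lost and 2.27% gained. With equal list lengths the order turned for Fgf ligands (0 lost, 2 gained) and potassium channels (5 lost, 11 gained). All 42 ribosomal protein genes, 24 of 25 polycomb genes and 18 of 19 genes of the H3K4 methyltransferase complexes were kept, and none of these was lost or gained. Of 1113 olfactory receptor genes 7 were lost, 8 gained and only 2 kept. The lost were 77.8% of the 9 starts with a WT domain, against 5.33% of all coding genes with one. The gained were 0.725% of the starts without a WT domain, against 6.61% of all coding genes without one. Of 367 Zfp genes 12 were lost and 4 gained, or 3.72% of the 323 starts with a WT domain and 9.09% of those without. Replication-dependent histone genes had 2 gained and no lost starts among 66, and their covered length was shorter in KO for 49 of 64.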

How the data were processed

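ChIP-seq libraries for H3K4me3 were available from week 2 EBs of both genotypes, 1 each, and from 6 further samples of other stages. The authors mapped reads to mm9 with Bowtie2 (v2.1.0), keeping 1 position per read, and called domains against input with rseg-diff of RSEG (-i 20, mode 2, dead zones for 50 bp reads). The deposited lists give a signal per bin of the domain, which is not a raw read count (column 5), and a domain score (column 6). Read totals are not in the lists. By the study's own read totals the week 2 WT library had more mapped ChIP reads than the KO library, and its input fewer.

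Overlap meant at least 1 bp. Of the 72600 domains, 0 ended beyond an NCBIM37 chromosome. Starts were the 5-prime ends of 22367 coding genes (GENCODE vM1). For the gene lists, 6 symbols were matched by older names and 1 (Sox1) was not matched. Intervals are 95% (Wilson, Newcombe) and cover counting error only. Genes were named by rank of column 5, leaving out predicted (Gm, Rik) symbols and counting genes that share a domain once: 10 lost, 10 gained, and 5 each that differed at all EB weeks, besides list members. Members and lists were chosen with earlier results of these data known. Overlap code was tested on simulated intervals. Python 3.11.15, numpy 2.4.6 and pandas 2.3.3 were used. Alternatives are given at the end. A few items of the gene lists and sequences are not reported here.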

Additional observations from a re-analysis of the deposited data

Results flagged for a closer look

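Some values went in opposite directions at different stages, each from 1 library per genotype, and none of these differences was tested. The log2 ratio of the number of H3K4me3 domains in KO over WT was -0.29 for week 2 EBs and -0.41 for mESC. For week 3 and week 1 EBs it was 0.074 and 0.028. The share of KO-only week 2 domains present in the KO minus that in the WT list was 19.3 points for week 3, 3.72 points for week 1 and -6.32 points for mESC. The number of gained minus lost Hox promoters was 6 for week 2, -1 for week 3, -7 for week 1 and -11 for mESC.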

How the results depend on the processing

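Of 53 alternative values, 27 moved. Shares, gene counts and CpG ratios cannot change sign, and of the differences, which can, 0 did. When at least 0.5 of a domain had to be covered, 47.0% of WT and 70.4% of KO domains were shared. At or above the median of column 5 these shares were 79.9% and 85.7%, with equal list lengths 65.8% and 69.5%, and over base pairs 58.1% for WT. Counting domains within 1 kb gave 77.9% for KO, and leaving out chromosomes 8 and 11, chosen after the data were seen, 78.1%. With no domain allowed within 10 kb in the other list, 487 genes were lost and 282 gained. With the present domain at or above the median of column 5, 229 were lost and 153 gained, and with equal list lengths 974 were gained and 529 lost, the opposite order. Leaving out chromosomes 8 and 11 gave 710 and 408, and requiring every domain at the start to be unshared 630 and 389.

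The difference in retained share at gene starts was 50.5 points with at least 0.5 covered, 22.1 within length groups and 29.4 within groups of column 5. With H3K27me3 it was -12.5, -4.33 and -7.78 points. In H3K9me3 domains it was -6.11 within length groups and -6.97 within groups of column 5. The week 3 difference (KO minus WT) was -2.11 and -5.11 points for WT-only domains with at least 0.5 covered and at or above the median of column 5, 16.4 and 24.1 points for KO-only domains, and -1.90 for shared domains with at least 0.5 covered. The cause of these shifts was not tested. In the central 500 bp the median CpG ratio was 0.212 for WT-only, 0.282 for KO-only and 0.281 for shared WT domains, so KO-only domains no longer lay under shared ones. No paired analysis was possible because each genotype and stage had 1 library. Single libraries, unlike depths and bins and a single KO line limit every comparison.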
